A study of Mus musculus with 120 samples.

Results

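Guanylate-binding proteins (GBPs) and immunity-related GTPases (IRGs) are 2 families of interferon-induced GTPases, and 9 of their genes were followed here through a halofuginone dose series in mouse macrophages. The 9 genes are 5 GBPs (Gbp2, Gbp3, Gbp5, Gbp7 and Gbp9) and 4 IRGs (Irgm1, Irgm2, Igtp and Iigp1), taken by symbol from a table of 23481 gene symbols. The 120 libraries are 3′ digital gene expression libraries of macrophages grown from the bone marrow of male, 12 weeks old, wild-type C57BL/6 mice. Every culture, controls included, was grown in CMG medium, transduced with a 58-TF-seq reporter virus and replated in 96-well format. Halofuginone, an inhibitor of prolyl-tRNA synthetase, was given at 2.4, 9.7, 39, 156, 625, 2500 or 10000 nM, either alone or with 2 mM proline, the amino acid that the enzyme loads. Each dose, with and without proline, has 2 libraries at each of 3 times labelled 0, 1 and 4 (T0, T1 and T4), and each time has 12 control libraries without halofuginone. No control label names proline, and no group is labelled with proline alone. The study's design names LPS, a bacterial activator of macrophages, given after 30 minutes of pretreatment, but no library's label says whether it had LPS and the time labels carry no unit, so T1 and T4 are used here as labels of time only. Nothing says that the libraries of a group came from separate cultures, so p-values measure the spread between these libraries, which may be technical.

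GBPs and IRGs are large GTPases that assemble on the membranes of vacuoles holding intracellular bacteria and parasites and help to break them. In macrophages LPS acts through TLR4 to release interferon-beta, and interferon signalling then switches the genes on. Among the IRGs, Iigp1 (Irga6) is an effector that loads onto pathogen vacuoles, while Irgm1, Irgm2 and Igtp (Irgm3) are regulators that sit on host membranes and hold the effectors inactive there.

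The genes lie in clusters. In GRCm38, Gbp5 (3:142493978-142522344), Gbp7 (3:142530342-142550149), Gbp3 (3:142560026-142573209) and Gbp2 (3:142620602-142638008) are neighbours on the plus strand of chromosome 3. Gbp9 (5:105077630-105139539, minus strand) overlaps Gbp8 and Gbp4 on its own strand. Igtp (11:58199556-58207591) and Irgm2 (11:58199618-58222782) overlap on the plus strand of chromosome 11 and Irgm1 (11:48861968-48871683) is on its minus strand. Counts of overlapping genes could have been split between them, but in the last 500 bases of the transcripts, where these libraries read, no run of 50 bases of Gbp9, Irgm2 or Igtp was shared with another gene. Of such runs, 5.99% in Gbp5 and 3.99% in Irgm1 were shared with other genes.

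The promoters of the 4 chromosome 3 genes are shown because, of the 7 members searched, their transcripts changed most from T0 to T4. All 7 carry the core of the interferon-stimulated response element, a short motif of interferon-induced genes, within 250 bases before the start site. The printed sequences come from RefSeq (GRCm38.p6), 250 bases before to 50 after the start. Capitals mark matches on either strand to that core, GAAANNGAAA, and to the gamma activated site, TTCNNNGAA.
Gbp3 promoter, chr3:142559794-142560093, plus strand: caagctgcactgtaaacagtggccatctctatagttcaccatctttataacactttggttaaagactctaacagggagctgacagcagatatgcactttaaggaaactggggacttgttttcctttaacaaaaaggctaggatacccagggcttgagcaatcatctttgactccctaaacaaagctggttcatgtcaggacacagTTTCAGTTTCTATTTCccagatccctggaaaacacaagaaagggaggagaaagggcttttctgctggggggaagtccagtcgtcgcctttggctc
Gbp2 promoter, chr3:142620413-142620712, plus strand: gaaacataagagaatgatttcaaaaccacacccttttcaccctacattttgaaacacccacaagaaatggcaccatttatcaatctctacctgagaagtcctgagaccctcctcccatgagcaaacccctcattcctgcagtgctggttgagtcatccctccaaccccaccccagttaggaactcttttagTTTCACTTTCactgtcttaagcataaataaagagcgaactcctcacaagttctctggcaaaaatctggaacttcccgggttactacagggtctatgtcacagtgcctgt
Gbp5 promoter, chr3:142496684-142496983, plus strand: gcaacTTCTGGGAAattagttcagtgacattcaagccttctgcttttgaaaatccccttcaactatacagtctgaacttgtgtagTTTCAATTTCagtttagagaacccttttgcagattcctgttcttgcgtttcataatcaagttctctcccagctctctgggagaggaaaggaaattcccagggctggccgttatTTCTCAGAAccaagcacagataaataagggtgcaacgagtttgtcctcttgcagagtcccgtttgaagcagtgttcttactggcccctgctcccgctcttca
Gbp7 promoter, chr3:142530086-142530385, plus strand: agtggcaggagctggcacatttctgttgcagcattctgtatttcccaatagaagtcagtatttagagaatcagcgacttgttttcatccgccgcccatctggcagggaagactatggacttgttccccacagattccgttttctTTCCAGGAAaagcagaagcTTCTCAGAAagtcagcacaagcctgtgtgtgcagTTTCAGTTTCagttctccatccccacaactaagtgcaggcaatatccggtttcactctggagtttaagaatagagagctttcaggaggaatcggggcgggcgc
The response element core begins at position -45 of Gbp3 with an overlapping second match at -39, at -59 of Gbp2, at -165 of Gbp5 and at -53 of Gbp7, counted from the start site. Gbp5 and Gbp7 each hold 2 gamma activated sites, and the printed windows of Gbp2 and Gbp3 hold none. The search covered 7 of the 9 genes, without Gbp9 and Iigp1, and all 7 held the core in at least 1 window, against 3.44% of all 32851 promoters in the table. The gamma activated site was found in 4 of the 7 (Gbp5, Gbp7, Igtp and Irgm2), against 8.30% of all promoters. The same 10 letters, read on either strand, formed the core in 4 genes: Gbp3, Gbp7, Igtp and Irgm2. The Igtp and Irgm2 promoters were 68.1% identical over 270 bases without gaps, and the other 20 pairs of member promoters reached at most 35.1%. A match is a run of letters and does not show that a factor binds there.

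Total counts ran from 20000 to 114061 per library, with a median of 49515, and 8 libraries held under 30000. The 45S ribosomal precursor Rn45s took 27.0% to 71.1% of each library, so the other genes shared 5798 to 69316 counts. At T4 the Rn45s share was 27.0% to 42.7% in the 12 controls and 61.5% to 67.6% in the 6 libraries at 625 to 10000 nM without proline, so the groups did not overlap in how much of the library was left for messenger RNA. Of the macrophage markers all 11 in the table had counts in the T4 controls; Csf1r, the receptor for the macrophage growth factor, had counts in all 120 libraries, while Lyz2 held 18 counts in 15 libraries and Mertk 39 in 26. Neutrophil markers held 202 counts and dendritic cell markers 35 in the T4 controls. B cell, erythroid and mast cell markers had 0 counts in the T4 controls. Of 10 T and NK cell markers 9 were at 0 there, Ifng among them. Levels below are CPM, counts divided by scaled library size, on the scale used for the tests, and a log2 change compares fitted levels. A gene is called where its p, adjusted by Benjamini-Hochberg over all genes tested, is under 0.05. In such bulk samples fewer cells of a type and less RNA per cell cannot be told apart.

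All 9 transcripts were scarce at T0 and T1 and abundant at T4 in the controls. Of the 10848 counts of the 9 genes, 92.6% lie in T4 libraries. The summed level was 59.4 to 250 CPM (median 111) at T0, 104 to 435 CPM (median 308) at T1 and 3448 to 5546 CPM (median 4338) at T4, with no overlap between T4 and either earlier time. The 6 members abundant enough to be tested (Gbp2, Gbp3, Gbp5, Gbp7, Irgm1 and Iigp1) all rose from T0 to T4, in a comparison where 76.4% of 708 genes were called in either direction, and all 6 rose from T1 to T4, where 62.1% were called. Of these 6, Gbp2, Gbp3, Gbp5, Gbp7 and Iigp1 held 1 to 10 counts each over the 12 T0 controls and passed the filter on low counts only through later libraries, so the filter largely fixed their direction and nothing is read from the count of members that rose.

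Iigp1, the effector (18:60376027-60392634, plus strand), was nearly silent until T4. Its 12 controls together held 4 counts at T0 and 2 at T1, then 561 at T4, where single libraries ran from 491 to 680 CPM with a median of 591. Its log2 change from T0 to T4 was 6.17 (standard error 0.304), and 6.82 without T0 control replicate 5. From T1 to T4 it had the largest change among all 708 genes tested, 6.95 (standard error 0.326). That rank rests on the 2 counts at T1, and Iigp1 passed the filter on low counts only through T4. As a ratio of T4 to T0 it stood at 94.1, with an exact 95% counting interval from 36.5 to 346.

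Gbp3 and Gbp2 stood at 1 and 3 counts over the 12 T0 controls. Gbp3 held 496 counts at T4, a ratio of 333 with an exact 95% counting interval from 59.4 to 13200. Gbp2, which coats bacteria and parasite vacuoles, held 658 counts at T4, a ratio of 147 with an interval from 50.1 to 715. The intervals are wide because so few T0 counts stand under them, and they cover counting error only.

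Gbp5, which promotes assembly of the NLRP3 inflammasome, rose by 6.05 on the log2 scale from T0 to T4 (standard error 0.324). It held 8 counts over the T0 controls and 932 at T4, a ratio of 78.1 (95% counting interval 39.5 to 182). Gbp7, which in mouse macrophages helps to assemble the phagocyte oxidase, rose by 5.05 (standard error 0.346). It went from 10 counts to 554, a ratio of 37.2 (95% counting interval 20.1 to 77.9). Gbp5 and Gbp7 passed the filter on low counts only through later libraries. Irgm1 started highest of the 9 and rose least of the 6 tested. Its T0 controls ranged from 27.2 to 188 CPM (median 60.7), its T1 controls from 18.9 to 169 CPM (median 63.7) and its T4 controls from 305 to 514 CPM (median 432). T0 and T1 overlapped throughout, and T4 lay above both. The log2 change of Irgm1 to T4 was 2.62 (standard error 0.220, adjusted p = 5.71e-16).

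Gbp9, Irgm2 and Igtp were too scarce for the filter on low counts in this comparison, with 3, 8 and 8 counts over the T0 controls. At T4 they held 130, 270 and 214 counts, ratios of 29.1 (95% counting interval 9.73 to 143), 22.6 (11.3 to 53.0) and 17.9 (8.94 to 42.1). Each of these intervals lies wholly above 1.

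By T1 Gbp2, Gbp3 and Gbp5 had passed the test. Of the 6 members tested, 3 were called from T0 to T1, all higher, where 26.1% of the 708 genes were called in either direction and 18.2% as higher. Gbp3 rose by 3.39 (standard error 0.762, adjusted p = 0.000276; 4.247 without T0 control replicate 11), Gbp5 by 2.65 (standard error 0.487, adjusted p = 9.67e-06) and Gbp2 by 1.95 (standard error 0.742, adjusted p = 0.0442). The call of Gbp2 rests on 17 counts at T1 against 3. It stood at 2.81 without T0 control replicate 5, and was lost when any 1 of 16 of the 24 control libraries was left out. Gbp7 (0.85), Irgm1 (-0.05) and Iigp1 (-0.78) did not pass, and whether they differ from the GBPs that rose was not tested. Gbp9, Irgm2 and Igtp were too scarce to test, and Iigp1 held 4 counts at T0 and 2 at T1. These counts thus cannot set the IRGs apart from the GBPs at T1.

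**Figure D1:**
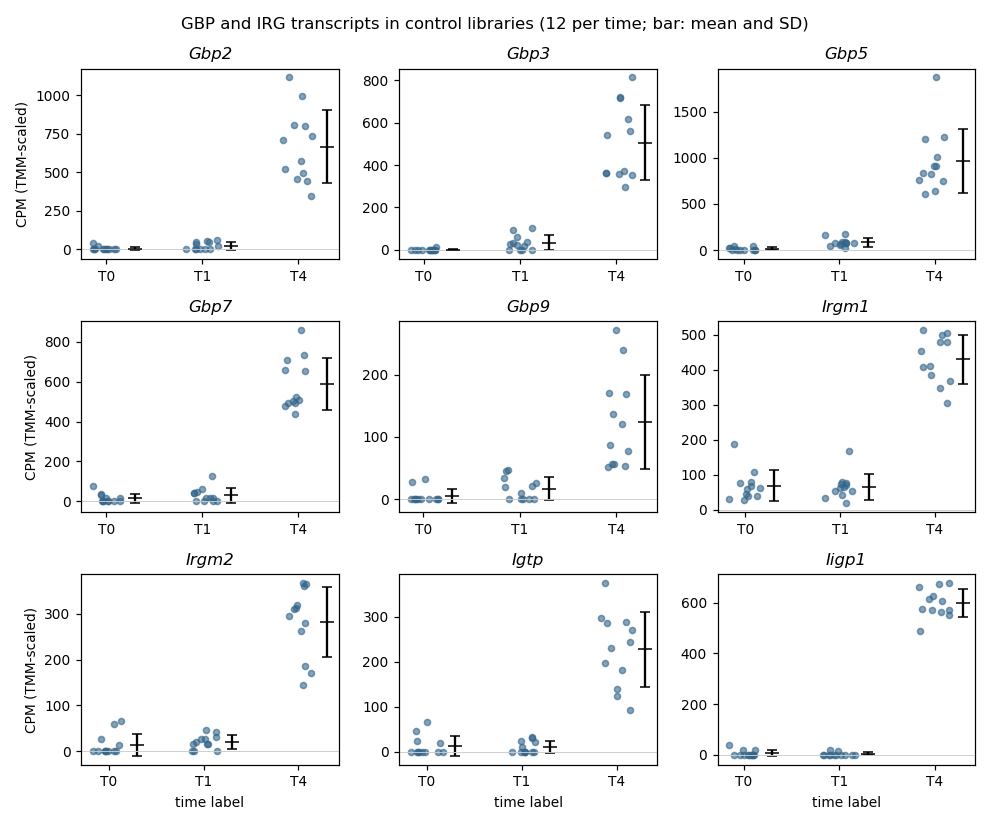
Level in CPM of the 9 transcripts in each of the 12 control libraries at T0, T1 and T4, with the mean and SD as a bar beside the points and a separate linear axis for each gene. In all 9 panels the T4 libraries lie above those of T0 and T1; Iigp1 at T4 runs from 491 to 680 CPM.

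At the 3 highest doses members were called in both directions at T4. Without proline, 625 to 10000 nM halofuginone lowered Iigp1, Gbp7, Irgm1 and Irgm2 and raised Gbp2 and Gbp5 relative to the controls, and Gbp3, Gbp9 and Igtp did not pass. That is 6 of 9 members called, 2 higher and 4 lower, where 54.6% of 1315 genes were called, 19.1% as higher and 35.5% as lower. These counts are near the shares over all genes, so nothing is read from them. With proline 8 of 9 were called, 4 higher and 4 lower, where 52% of genes were called, 18.6% as higher and 33.4% as lower. Both arms were set against the same 12 controls, whose labels name no proline. Changes with proline against these controls thus hold halofuginone and proline together.

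Iigp1 had the lowest log2 change of the 9 members without proline; with proline Irgm1 and Gbp7 had lower ones. Its 12 controls ran from 491 to 680 CPM (median 591), the 6 libraries without proline from 0 to 248 CPM (median 159), and the 6 with proline from 0 to 486 CPM (median 365). Every treated library of both arms lay below every control. The log2 change was -2.28 without proline (standard error 0.384, adjusted p = 8.30e-07), to 20.6% of the control level, and -0.93 with it (standard error 0.302, adjusted p = 0.00786). Both stayed called with any 1 library left out, but their size depends on single libraries: the first was -3.77 without 2500 nM replicate 2, and the second -3.33 without 625 nM replicate 1 and -1.62 without 10000 nM replicate 1. In the first 2 cases the other library of that dose had 0 counts, so these fitted values carry no size. The difference between the arms was 1.35 (standard error 0.494) and did not pass (adjusted p = 0.227), and it turned to -0.94 without that 625 nM library with proline.

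Gbp7 fell by 1.35 without proline (standard error 0.269, adjusted p = 2.16e-05), to 39.2% of the control level, and by 1.21 with it (standard error 0.270, adjusted p = 0.000148). Its controls ran from 440 to 858 CPM (median 514), the libraries without proline from 78.7 to 327 CPM (median 230) and those with proline from 84.1 to 446 CPM (median 263). The first treated set lay wholly below the controls, and 5 of 6 libraries of the second did. On this scale Gbp7 thus moved opposite to Gbp2 and Gbp5 of the same chromosome 3 cluster. Gbp3, which lies between Gbp7 and Gbp2, changed by -0.44 without proline, which did not pass, and by 0.98 with it.

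Irgm1 fell by 1.32 without proline (standard error 0.321, adjusted p = 0.000439) and by 1.30 with it (standard error 0.309, adjusted p = 0.000348). Against controls of 305 to 514 CPM (median 432), the treated libraries ran from 40.03 to 419 CPM (median 202) and from 33.9 to 365 CPM (median 176). Of the 6 libraries in each arm, 4 and 5 lay below all controls. Irgm2 fell by 0.89 without proline (standard error 0.348, adjusted p = 0.0254) and by 0.90 with it (standard error 0.348, adjusted p = 0.0260). Its controls ran from 144 to 368 CPM (median 302), the libraries without proline from 0 to 233 CPM (median 198) and those with it from 117 to 187 CPM (median 157), so the Irgm2 groups overlapped. Without the first 10000 nM library, which had no Irgm2 count, the change without proline was -0.56 and did not pass (adjusted p = 0.204), and without the second, which leaves that dose at 0 counts, it was -2.74. Irgm1 with proline was -2.20 without 10000 nM replicate 2.

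Gbp5 and Gbp2 stood higher on the same scale. Gbp5 ran from 604 to 1875 CPM (median 876) in the controls, from 1648 to 3181 CPM (median 2144) without proline and from 841 to 4982 CPM (median 2197) with it, and 4 of 6 libraries of each arm exceeded every control. Its log2 change was 1.18 without proline (standard error 0.204, adjusted p = 1.44e-06) and 1.40 with it (standard error 0.20, adjusted p = 2.05e-08), the latter 0.78 without 625 nM replicate 1. Gbp2 ran from 343 to 1115 CPM (median 640) in the controls, from 745 to 2321 CPM (median 1246) without proline and from 505 to 1850 CPM (median 1173) with it. The Gbp2 groups overlapped, and its log2 change was 0.93 (standard error 0.221, adjusted p = 0.000283) and 0.84 (standard error 0.226, adjusted p = 0.00142). Leaving out the first 2500 nM library lowered the change of Gbp2 without proline to 0.52 (adjusted p = 0.0996). With proline, leaving out 10000 nM replicate 2, 2500 nM replicate 2 or 625 nM replicate 1 lowered it to 0.56, 0.45 or 0.32, none of which passed.

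These rises depend on the scale. Scaled by library totals alone, an alternative added after the data were seen, the changes without proline became 0.14 for Gbp2 and 0.39 for Gbp5, neither called, and Gbp3 was called lower at -1.23, while those of Gbp7 (-2.13), Irgm1 (-2.10), Irgm2 (-1.67) and Iigp1 (-3.06) stayed called. That scaling moved the median of all genes from -0.23 to -1.004. With proline the same scaling left Gbp5 called at 0.63, and Gbp2 (0.05), Gbp3 (0.20) and Gbp9 (0.41) not called, while the 4 lower calls held. Gbp2 and Gbp5 stood above the median gene, and Gbp7, Irgm1, Irgm2 and Iigp1 below it, under either scaling. The Rn45s share, which differed between the groups without overlap, moved with these changes, and its part in them was not tested.

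The other 3 members varied among libraries. Gbp3 without proline changed by -0.44 (standard error 0.307, adjusted p = 0.219), with 120 to 922 CPM against 296 to 814 CPM in the controls. With proline Gbp3 was called higher at 0.98 (standard error 0.25, adjusted p = 0.000766), but its 6 libraries ran from 182 to 2085 CPM. Without 2500 nM replicate 2, the library at 2085 CPM, the value was -0.032 (adjusted p = 0.937), and without 625 nM replicate 1 it was 0.77 (adjusted p = 0.0516). Gbp9 changed by 0.55 without proline (standard error 0.403, adjusted p = 0.248) and by 1.17 with it (standard error 0.382, adjusted p = 0.00820), and the second call was lost without 10000 nM replicate 1 (0.91), 2500 nM replicate 2 (0.80) or 625 nM replicate 1 (0.63). Igtp, which overlaps Irgm2, changed by 0.28 (standard error 0.354) and 0.02 (standard error 0.422) and did not pass in either arm.

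**Figure D2:**
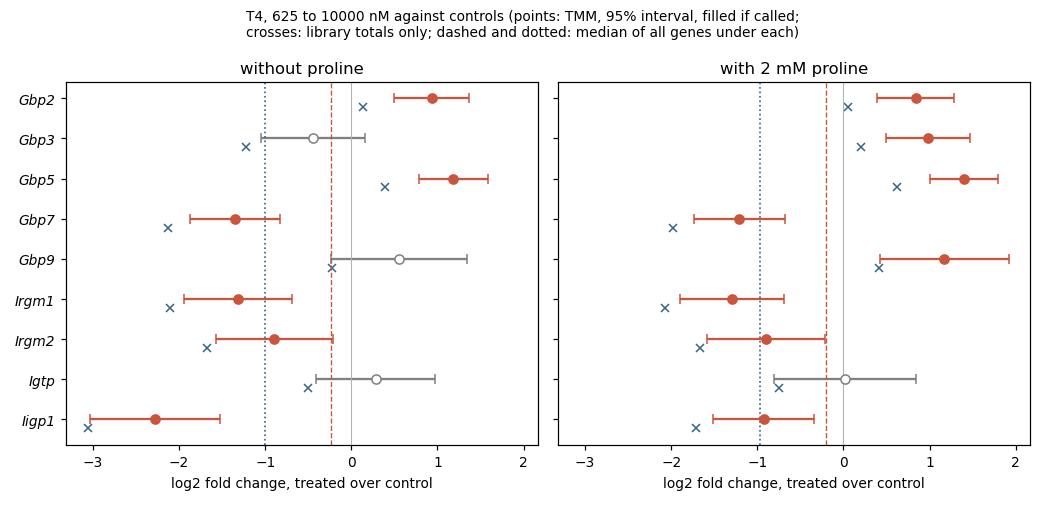
Log2 fold change of each transcript at T4 between 625 to 10000 nM halofuginone (6 libraries) and the controls (12 libraries), without and with proline. Circles with 95% intervals are the fitted changes, filled where called; crosses are the values scaled by library totals only; the dashed and dotted lines are the medians of all genes under each scaling. In both panels the circles of Gbp7, Irgm1, Irgm2 and Iigp1 lie left of the dashed line and their crosses left of the dotted line, and those of Gbp2 and Gbp5 lie right of them.

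Ratios of 2 members within the same library need no scaling, with a pseudocount of 0.5 added to each count. All 36 pairs were compared between the 6 libraries at 625 to 10000 nM and the 12 controls by an exact two-sided permutation test, with p adjusted over the 36 pairs of an arm; these tests were added after the data were seen. Without proline 20 of 36 ratios differed, and with proline 20 of 36. The share over pairs of other genes was not computed, so nothing is read from these counts. The ratio of Gbp5 to Iigp1 rose by 3.47 on the log2 scale and that of Gbp2 to Iigp1 by 3.18. The ratio of Gbp5 to Gbp7 rose by 2.59 and that of Gbp2 to Gbp7 by 2.29, each with an exact permutation p of 5.39e-05, the smallest that these group sizes allow. Ratios among Gbp2, Gbp5 and Gbp9 did not pass in either arm, nor did those among Gbp7, Irgm1 and Irgm2. The ratio of Irgm2 to Igtp changed by -1.01 and by -0.60 (exact permutation, adjusted p = 0.251 and 0.292), so these overlapping genes were not shown to differ.

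**Figure D3:**
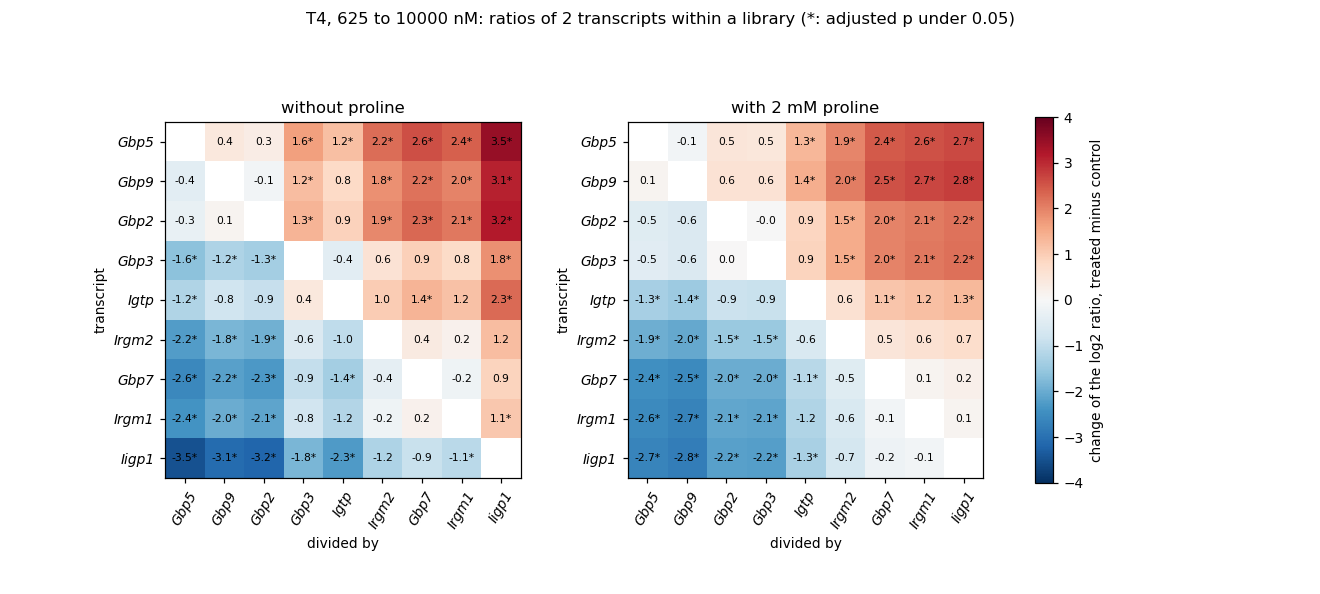
Change of the log2 ratio of the transcript in the row to the transcript in the column at T4, between 6 libraries at 625 to 10000 nM and 12 controls, without proline (left) and with proline (right); red means the row transcript gained on the column transcript, and asterisks mark an adjusted p under 0.05. The upper right corner is red in both panels: Gbp5, Gbp9 and Gbp2 gained on Irgm2, Gbp7, Irgm1 and Iigp1.

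Calls against the controls first appeared at 39 nM without proline and at 156 nM with it. The share of all genes called rose at the same doses, so nothing is read from this onset among the members. At 2.4 and 9.7 nM none of the 9 members was called without proline, where 4.33% of genes were called, or with it, where 0% were called by edgeR (66 genes at an unadjusted p under 0.05, and 0 called by DESeq2). At an unadjusted p under 0.05 there were 2 members without proline and 0 with it, and DESeq2 called 0 in both. Irgm2 without proline had the lowest adjusted p of the members at these doses, with a change of 0.79 (standard error 0.271, adjusted p = 0.0809) and libraries of 484, 343, 497 and 688 CPM, 3 of them above every control.

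At 39 nM without proline 3 of 9 members were called where 26.8% of genes were: Gbp2 higher by 0.95 (standard error 0.326, adjusted p = 0.0240), Gbp5 higher by 1.13 (standard error 0.299, adjusted p = 0.00337) and Iigp1 lower at -1.45 (standard error 0.497, adjusted p = 0.0229). The calls of Gbp2 and Gbp5 were lost when either 39 nM library was left out, with Gbp2 at 0.65 and 1.06 and Gbp5 at 1.04 and 1.06, and that of Iigp1 without the second, which had no Iigp1 count (-0.60). DESeq2 called neither Gbp2 (0.59, adjusted p = 0.197) nor Gbp5 (0.77, adjusted p = 0.0778) at this dose, and it called Irgm1 lower (-1.06, adjusted p = 0.0455). At 156 nM without proline Gbp2 (2.38-fold, standard error 0.342 on the log2 scale, adjusted p = 0.00513) and Gbp3 (1.21, standard error 0.391, adjusted p = 0.0201) were called higher where 21.3% of genes were called. With 156 nM replicate 2 left out they stood at 0.37 and 0.76, and with replicate 1 left out Gbp3 stood at 1.30 (adjusted p = 0.0830). DESeq2 at 156 nM without proline did not call Gbp3 (1.05, adjusted p = 0.0631) and called Iigp1 lower (-1.41, adjusted p = 0.0415). At 156 nM with proline Gbp5 (1.45, standard error 0.302, adjusted p = 0.000254) and Gbp9 (1.71, standard error 0.548, adjusted p = 0.0194) were called higher and Iigp1 lower (-2.67, standard error 0.685, adjusted p = 0.00332), where 18.9% were called. Without its replicate 2 Gbp5 (0.67, adjusted p = 0.432) and Gbp9 (adjusted p = 0.538) were not called, and without replicate 1 Iigp1 was not (adjusted p = 0.0859). Iigp1 at 39 nM without proline and at 156 nM with it had 1 library at 0 counts each, and with the other left out its fitted value carries no size. With a single library left in a group, that library is assumed to vary like those of the other groups.

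Across the 7 doses without proline the level fell by 0.51 per 10-fold dose for Gbp7 (standard error 0.134, adjusted p = 0.00445) and by 0.55 for Irgm1 (standard error 0.168, adjusted p = 0.0128), 2 of 5 members tested, where 35.6% of 329 genes were called. With proline 5 of 8 members tested had a slope, where 54.7% of 508 genes did: Gbp5 (0.56, standard error 0.126), Gbp3 (0.49, standard error 0.140) and Gbp2 (0.26, standard error 0.112) rose with dose, and Irgm1 (-0.41, standard error 0.151) and Irgm2 (-0.40, standard error 0.161) fell. Scaled by library totals only, the slope of Gbp2 was -0.13 and did not pass, nor did those of Gbp3 (0.11) and Gbp5 (0.19). With 1 library left out in turn, the call was lost for Gbp2 in 8 cases, for Irgm2 in 4 and for Irgm1 in 2.

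**Figure D4:**
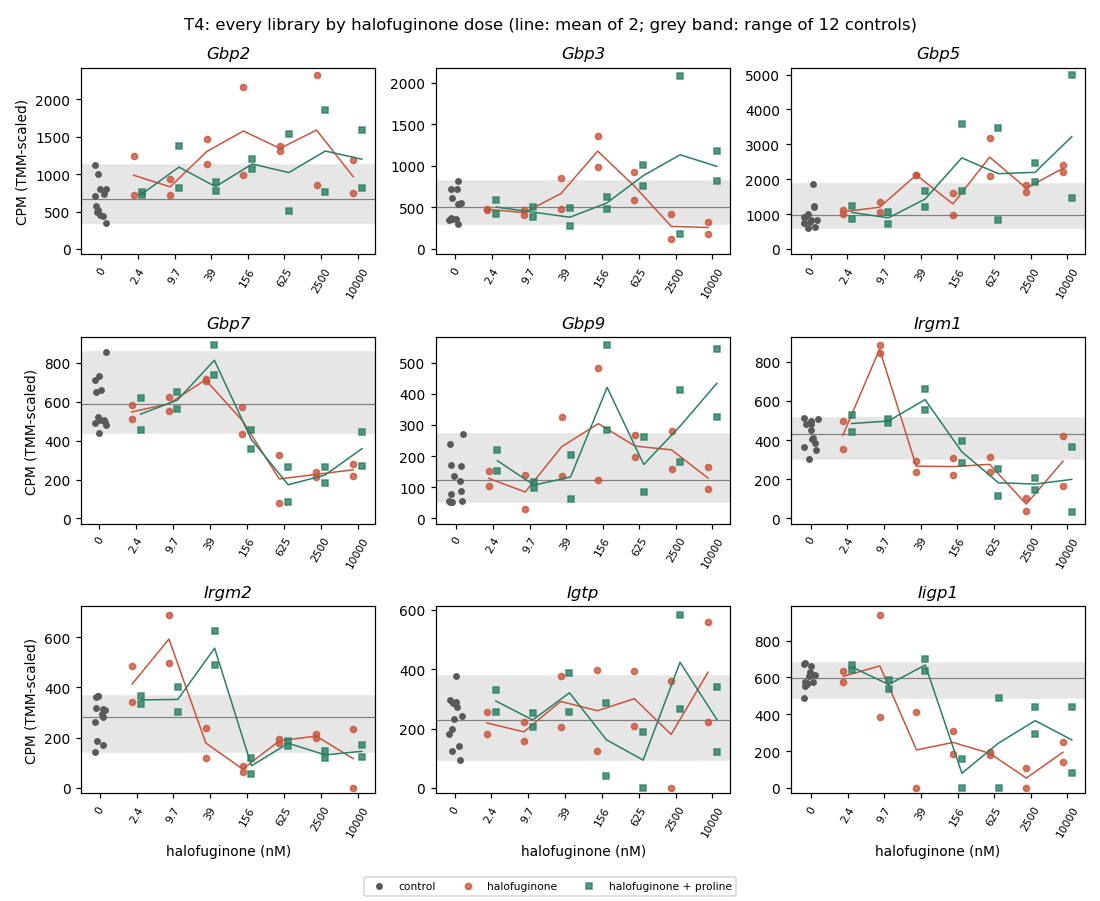
Level in CPM of each transcript at T4 in every library, by halofuginone dose in nM with the doses equally spaced, without proline (circles) and with proline (squares). Coloured lines join the means of 2 libraries, the grey band spans the 12 controls and the grey line is their mean. At 39 nM Irgm1, Irgm2 and Iigp1 lie lower without proline than with it, for Irgm1 at 294 and 239 CPM against 661 and 552 CPM.

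At 39 nM 3 IRG transcripts stood lower without proline than with it. Irgm1 stood at 294 and 239 CPM without proline and at 661 and 552 CPM with it. Irgm2 stood at 118 and 239 CPM without and at 625 and 488 CPM with proline. Iigp1 stood at 412 and 0 CPM without and at 698 and 637 CPM with proline. In each of the 3 genes both libraries with proline lay above both without, and Irgm1 and Iigp1 without proline lay below all 12 controls. The arms did not overlap for Gbp2, Gbp5 and Gbp7 either, with Gbp7 higher with proline and Gbp2 and Gbp5 lower. Full separation of 2 libraries from 2 carries little weight, and its share over all genes was not computed. In the test of the arms against each other, 1 of 9 members was called, Irgm2 at 1.66 (standard error 0.576, adjusted p = 0.0474), where 11.8% of genes were called. Iigp1 (1.61, standard error 0.583, adjusted p = 0.0580) and Irgm1 (1.17, standard error 0.495, adjusted p = 0.110) did not pass, although DESeq2 called both (adjusted p = 0.00450 and 0.0197). The call of Irgm2 did not survive leaving out any 1 of the 4 libraries (1.27 to 2.26, adjusted p from 0.0979 to 0.320). Igtp stood at 206 and 376 CPM without proline and at 386 and 255 CPM with it, overlapping.

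No GBP was shown to differ between the arms at this dose. Gbp5 stood at 2120 and 2121 CPM without proline and at 1672 and 1189 CPM with it, and Gbp2 at 1472 and 1129 CPM against 772 and 892 CPM, but neither difference passed (adjusted p = 0.383 and 0.343). With proline at 39 nM none of the 9 members was called against the controls, where 2.97% of genes were (1 member at an unadjusted p under 0.05, and 0 by DESeq2). The Rn45s share at 39 nM moved with proline too, at 63.7% and 64.3% without it and at 37.1% and 43.5% with it, and its part in these differences was not tested. Irf9, a transcription factor of the type I interferon response, named after its values were seen, stood at 29.4 and 34.2 CPM without proline and at 404 and 446 CPM with it, against 144 to 418 CPM in the controls.

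At the other doses proline was not shown to separate the arms. No member was called at 625 to 10000 nM, where 0% of genes were (145 at an unadjusted p under 0.05, and 0 by DESeq2), at 156 nM, where 0.076% were, or at 2.4 and 9.7 nM, where 1.29% were. At an unadjusted p under 0.05 edgeR gave 2, 1 and 0 members at these doses, and DESeq2 called 0 at each. At the highest doses Gbp3 differed by 1.43 (standard error 0.342, unadjusted p = 7.92e-05, adjusted p = 0.102), with a 95% interval from 0.76 to 2.10.

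**Figure D5:**
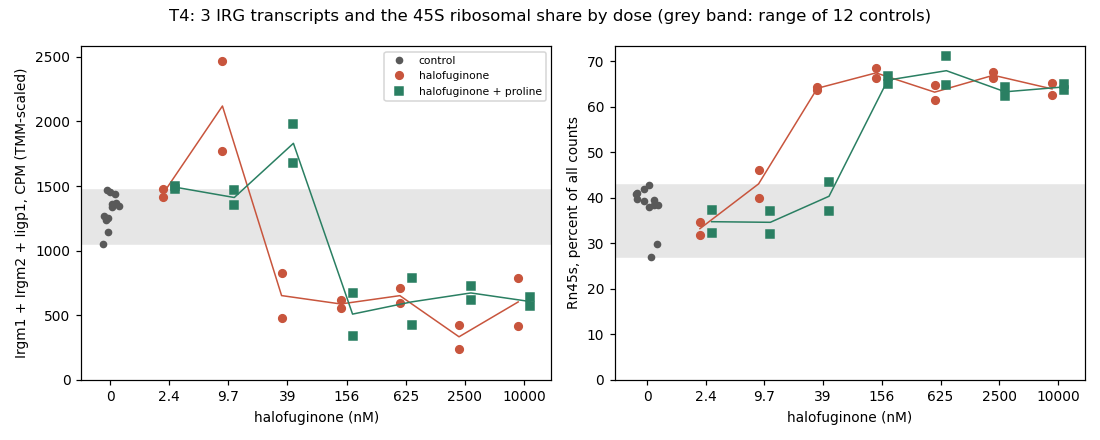
Summed level in CPM of Irgm1, Irgm2 and Iigp1 (left) and the percentage of all counts taken by Rn45s (right) at T4 in every library, by halofuginone dose in nM with the doses equally spaced; lines join the means of 2 libraries and the grey band spans the 12 controls. At 39 nM the sum is 479 and 825 CPM without proline and 1678 and 1984 CPM with it, and the Rn45s share is 63.7% and 64.3% against 37.1% and 43.5%; the 3 genes were chosen after their values were seen.

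Before T4 most transcripts were too scarce to test. At T0 none of the 9 was abundant enough to be tested at 625 to 10000 nM, where 38.5% of genes were called without proline and 43.5% with it. The 9 genes together held 25 and 27 counts over the 6 libraries of each arm. At T1 Gbp5 alone was tested, and its change did not pass without proline (0.12, standard error 0.632), where 34.5% of genes were called, or with it (0.79, standard error 0.506), where 38.8% were; DESeq2 called it in neither arm. In the test of whether the drug's change at T4 differed from that at T0, none of the 9 was called by edgeR (2 at an unadjusted p under 0.05) or by DESeq2, where 17.6% of 1468 genes were; Gbp3, Gbp5, Irgm2 and Iigp1 had 0 counts in the T0 libraries at 625 to 10000 nM without proline, so their fitted values carry no size.

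Related genes were described from 5 lists, and their counts at 625 to 10000 nM without proline are to be read against the 19.1% of all genes called higher and 35.5% called lower. From T0 to T4 the filter on low counts bears on these lists as it does on the members. Of 22 listed other interferon-induced GTPases, 20 were in the table. From T0 to T4 5 were tested in the controls and 5 rose: Mx1, an antiviral dynamin-like GTPase, by 6.10, Ifi47 by 4.03, and the IRG effectors Tgtp1 and Tgtp2 by 4.66 and 4.48. At 625 to 10000 nM without proline 13 were tested, 2 were higher and 5 lower, with a median of -0.10 beside -0.23 over all genes, near the shares over all genes. Tgtp1 fell by 4.30 (standard error 0.559, adjusted p = 9.10e-10), Tgtp2 fell by 4.27 (standard error 0.553, adjusted p = 8.28e-10) and Ifi47 fell by 1.03 (standard error 0.330, adjusted p = 0.00623), while Mx1 changed by -0.10 (standard error 0.221, adjusted p = 0.736). Tgtp1 and Tgtp2 are near-identical copies whose counts could have been split between them. At 39 nM 3 of the 13 were higher with proline than without, Tgtp1 among them at 1.92 (standard error 0.571, adjusted p = 0.0186).

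Among inducers and regulators of the pathway, Ifng had 0 counts in all 120 libraries. Ifnb1, which encodes interferon-beta and was named after its values were seen, had 0, 21 and 2 counts over the 12 controls at T0, T1 and T4. At T4 it had 10 counts over the 6 libraries at 625 to 10000 nM without proline (0 to 186 CPM) and 18 over the 2 libraries at 39 nM with proline (18.4 and 361 CPM), against 0 to 19.1 CPM in the controls. Of the 22 listed genes 10 were abundant enough to be tested from T0 to T4, and 9 of the 10 rose. At 625 to 10000 nM without proline 2 of 15 were higher and 6 lower, near the shares over all genes, with a median of -0.49. Socs3, a feedback inhibitor of cytokine signalling, rose by 5.85 with time and fell by 1.24 with the drug (standard error 0.352, adjusted p = 0.00230). Usp18, which restrains the type I interferon receptor, rose by 4.74 with time and stood at 0.40 with the drug (standard error 0.198, adjusted p = 0.0810). Jak2, a kinase of the interferon-gamma receptor, rose by 4.49 and stood 2.15-fold higher with the drug (standard error 0.212 on the log2 scale, adjusted p = 1.23e-05). Irf7, a factor that amplifies type I interferon, rose by 2.50 and fell by 2.17 (standard error 0.350, adjusted p = 3.02e-07).

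Of 28 listed antiviral genes of the type I interferon response 20 were tested from T0 to T4, and 20 rose. At 625 to 10000 nM without proline 6 of 27 were higher and 10 lower, near the shares over all genes, with a median of -0.30 beside -0.23. Ifit1, which binds viral RNA, rose by 6.73 with time and fell by 2.85 with the drug (standard error 0.183, adjusted p = 5.29e-23). Ifit2, its neighbour in function, rose by 5.83 and by a further 1.14 (standard error 0.135, adjusted p = 3.98e-11). Rsad2 (viperin) rose by 7.26 and fell by 2.05 (standard error 0.143, adjusted p = 5.28e-21), and Cmpk2, a nucleotide kinase, rose by 7.60 and fell to 0.323 of the control level (standard error 0.205 on the log2 scale, adjusted p = 3.14e-10). Of 12 listed inflammasome partners 2 were tested with time and rose: Il1b by 7.12 and Nlrp3 by 2.73. With the drug 2 of 7 were higher and 4 lower, with Il1b falling by 1.97 (standard error 0.177, adjusted p = 8.60e-16) and Nlrp3 rising by 0.79 (standard error 0.272, adjusted p = 0.0120). Of 17 listed genes of ubiquitin tagging and autophagy, which steer GBPs and IRGs to vacuoles, 2 were tested with time and 1 fell, Gabarap by 0.68 (standard error 0.213, adjusted p = 0.00361), while Sqstm1 stood at 0.15 (standard error 0.210, adjusted p = 0.511). With the drug 1 of 4 was higher and 1 lower: Gabarap fell by 2.61 (standard error 0.639, adjusted p = 0.000454) and Sqstm1 stood at 0.52 (standard error 0.274, adjusted p = 0.105).

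Markers of other cells moved with the drug as well. The summed level of the 6 neutrophil markers in the table was 114 to 470 CPM (median 220) in the T4 controls and 0 to 120 CPM (median 54.1) at 625 to 10000 nM without proline, with Mpo and Elane, which define neutrophil precursors, at 0 in both. With proline it was 81.1 to 176 CPM (median 105). The 11 macrophage markers summed to 1925 to 2925 CPM (median 2462) in those controls and to 944 to 2121 CPM (median 1247) in those treated libraries, where C1qa and Aif1 were at 0. With proline they summed to 1009 to 2270 CPM (median 1525). The part of either change in the results above was not tested.

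Over the 45 group means of log2 CPM, the genes whose pattern was most like the summed level of the 9 members were Cd69 (Pearson r = 0.977), an early activation marker, Ifit2 (0.968), Pyhin1 (0.961), Mx1 (0.957) and Isg15 (0.956), among 1768 genes. With a prior count of 1 in place of 3, 3 of these 5 remained in the top 5. These are descriptions over groups that share time and scaling. Among the members themselves the same correlation was highest for Gbp2 with Gbp3 (0.946) and lowest for Gbp9 with Irgm1 (0.605), and all 36 pairs were positive.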

How the data were processed

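Per the submitters' processing notes reads were aligned with BWA to mm10; no source used here names versions, the counting tool or whether molecular identifiers were collapsed. The deposited values are raw counts per gene symbol, made by the authors from modified SCRB-Seq libraries that read the 3′ ends of transcripts. Members and gene lists were chosen with earlier results of these data known. Counts were tested with edgeR 4.0.16 (quasi-likelihood test, TMM scaling, filterByExpr with a minimum count of 10, Benjamini-Hochberg threshold 0.05) in R 4.3.3: controls over time in 1 fit, all groups of a time in another, and the slopes on log10 dose over the 14 treated libraries of an arm. The standard error is the log2 change divided by the root of F. CPM levels use each time's own TMM factors, with the controls of each time set to their mean factor in the fit over time, a scale chosen after the data were seen. The named genes are the 9 members, up to 4 tested genes per list with the lowest adjusted p from T0 to T4, and the 5 non-member genes of highest correlation, with a prior count of 3 and predicted genes left out. Irf9, Ifnb1 and single cell markers fall outside this rule and were named after their values were seen. Neither the replicate numbers (same-numbered controls of different times correlated at a median of 0.0483) nor the labels pair libraries. No 2 libraries of a group were identical. Intervals of 95% on ratios are exact (Clopper-Pearson) and cover counting error only. Total counts of 20000 to 114061 per library set the precision: 1 count at T4 was worth 8.55 to 84.1 CPM. Only some of the tests were tried on simulated data, and the dose slopes were not among them. The outcome is not given here, so nothing is read from it. Alternatives were other scalings, no filter, DESeq2 1.42.0, a replicate block, structural RNAs or shallow libraries left out, and each library left out in turn.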

Additional observations from a re-analysis of the deposited data

Results flagged for a closer look

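Of 36 sets of 4 or 6 libraries of 1 gene at T4, 2 held a library far from the others by Dixon's test at the 95% level, and chance flags about 1 in 20 such sets. Irgm2 was at 0 CPM in the first 10000 nM library without proline, against 178 CPM in the nearest of the 6 libraries at 625 to 10000 nM. Gbp2 was at 1372 CPM in the second 9.7 nM library with proline, against 813 CPM in the nearest of the 4 libraries at 2.4 and 9.7 nM. Irgm2 at 39 nM differed between the arms in the test of proline itself, at 1.66 on the log2 scale, higher with proline in 2 of 2 libraries.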

How the results depend on the processing

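Depth limits these values: 1 count was worth up to 84.1 CPM at T4, so members at 0 to 3 counts in a library carry little information. Counts of members called are given as main value, then alternative. With 10000 nM left out, the dose slopes went from 2 to 5 without proline and 5 to 3 with it, the high doses with proline from 8 to 5 and the T4 against T0 difference from 0 to 2. With no filter on low counts, the slopes went from 2 to 4 and from 5 to 3, the high doses with proline from 8 to 5, 39 nM from 3 to 1, 156 nM from 2 to 0 and proline at 39 nM from 1 to 0. Scaled by library totals only, the high doses with proline went from 8 to 5, 156 nM from 2 to 4 and proline at 39 nM from 1 to 3. Median-of-ratios scaling gave 4 at 156 nM and 3 for proline at 39 nM, and DESeq2 gave 3 for the latter. Without structural RNAs the slope without proline had 4, proline at the high doses 1 and proline at 39 nM 2. Without libraries under 30000 counts, 156 nM had 1 and proline at 39 nM 2. The slope of Gbp2 with proline reversed to -0.023 with no filter and -0.13 by totals; the cause was not tested.

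With each library left out in turn, the members called ranged from 0 to 1 for the T4 against T0 difference, 2 to 5 and 3 to 6 for the slopes without and with proline, 5 to 8 for the high doses with proline, 0 to 3 at 39 nM, 0 to 3 and 1 to 3 at 156 nM without and with proline, 0 to 1 for proline at the high doses and 0 to 1 for proline at 39 nM. Gbp3 at the high doses with proline ranged from -0.032 to 1.15. The pairs called ranged from 19 to 22 without proline and 18 to 21 with it.

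The replicate numbers were not shown to pair libraries. The replicate block gave 5 members at the high doses with proline in place of 8, 1 for proline at the high doses in place of 0 and 0 for proline at 39 nM in place of 1. It took all genes called at T4 from 718 to 424 and from 684 to 393 at the high doses, from 353 to 137 and 39 to 8 at 39 nM, from 280 to 141 and 248 to 141 at 156 nM, from 57 to 8 at the low doses and, for proline, from 155 to 94 at 39 nM, 17 to 8 at the low doses, 0 to 1 at the high doses and 1 to 2 at 156 nM; at T0 from 435 to 235 and 492 to 260, and at T1 from 368 to 208 and 414 to 214.

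With each library left out in turn, counts over all genes ranged from 122 to 361 and 8 to 41 at 39 nM without and with proline, 83 to 293 and 47 to 250 at 156 nM, 26 to 58 and 0 to 1 at the low doses, 82 to 188 for the slope without proline, and for proline from 40 to 75 at 39 nM, 4 to 12 at the low doses, 0 to 4 at the high doses and 0 to 4 at 156 nM. Under the other alternatives the following counts moved by more than 1.5 times. No filter took T1 against T0 from 185 to 318, T4 against T0 from 541 to 2194, T4 against T1 from 440 to 1745, the slopes from 117 to 540 and 278 to 760, the difference of T4 and T0 from 258 to 151, T1 without proline from 368 to 559, 39 nM from 353 to 171 and 39 to 21, 156 nM from 280 to 175 and 248 to 159, the low doses from 57 to 32 and 0 to 2, and proline from 155 to 53 at 39 nM and 17 to 8 at the low doses. Totals took 156 nM from 280 to 490 and 248 to 471, the low doses with proline from 0 to 1 and proline at 39 nM from 155 to 290. DESeq2 took 39 nM with proline from 39 to 63 and proline at the low doses from 17 to 26. Leaving out shallow libraries took 156 nM from 280 to 162 and proline from 0 to 1 at the high doses and 1 to 3 at 156 nM, and leaving out structural RNAs took these from 0 to 1 and 1 to 2.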
